A study of Mus musculus with 15 samples.

Results

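This account compares the non-tumorous liver of 6 mice homozygous for the Mdr2 knockout with the liver of 3 heterozygous control mice. All 9 mice were 16 months old. These are 9 of the 15 arrays of the series, chosen by their labels; the other 6 arrays, of knockout tumours, were left out of the fit. The knockout livers are numbered 1 to 6 and the heterozygous livers 1 to 3 as in the labels, which give 1 liver per mouse, and livers 3, 4, 5 and 6 came from mice whose tumours were also profiled. The tissue was frozen whole liver, and the control animals also carry 1 knockout allele, so neither a single cell type nor a wild-type liver was measured. The labels give no strain and no sex.

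Mdr2, also named Abcb4, is a pump of the canalicular membrane that delivers phospholipid, mainly phosphatidylcholine, to bile. Phospholipid in bile packs bile acids into mixed micelles and shields the duct lining from them. Mice without the transporter secrete bile without phospholipid and are known to develop inflammation around the bile ducts, scarring and, late in life, liver tumours. The comparison asks how the liver tissue outside the tumours differs from control liver at the age at which tumours are present.

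Each array gave a signal for 22690 probe sets on a linear scale, and 8929 genes, each represented by 1 probe set, were bright enough to be tested. A log2 change is the difference between the mean log2(signal + 9.1) of the knockout and of the heterozygous livers, and a gene was called when its Benjamini-Hochberg adjusted p in limma was under 0.05. Arrays had a common trimmed mean of 150.1 and median signals between 40.8 and 46.7. The defining hepatocyte markers (Alb, Apoa1, Ttr, Cyp2e1 and Hnf4a) were above background in these livers, with summed signals of 51040 to 66260 in the knockout and 68110 to 73410 in the heterozygous livers. None of the 3 measured T and NK cell markers was above background. Principal components were taken over only the genes with the largest variance in these 9 arrays. The first component held 43.6% of the variance of those genes and separated the groups. Knockout liver 5 was at -0.46, nearest to the heterozygous livers at 21.9 to 24.4, and the other knockout livers were between -17.5 and -11.3. Actin control probe sets at the 3' end, divided by those at the 5' end as a measure of RNA quality, gave a ratio of 2.09 ± 0.393 (SD, n = 6) in knockout and 2.99 ± 0.414 (SD, n = 3) in heterozygous livers (exact two-sided permutation test over 84 splits, p = 0.0238, 0.0476 adjusted over 2 ratios). The same ratio for Gapdh was 1.03 ± 0.0955 and 1.17 ± 0.0565 (exact permutation p = 0.0595).

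Abcb4 was lower in every knockout liver. Its signal was 219, 205, 269, 177, 242 and 306 in knockout livers 1 to 6 and 1006, 779 and 886 in heterozygous livers 1 to 3. The groups did not overlap, and a signal remained in the knockout livers. The log2 change was -1.89 ± 0.16 (SE; adjusted p = 3.02e-06). The labels do not say which part of the gene is deleted, and a probe set outside the deleted part would still find transcript.

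Of the 8929 genes, 996 were called, which is 11.2% of those tested. Higher signals in the knockout livers were called for 640 genes (7.17%) and lower signals for 356 (3.99%). The rises were also the larger changes: 301 genes rose and 65 fell at least 2-fold, and 41 rose and 11 fell at least 4-fold. The median log2 change over all tested genes was -0.02, with a 5th percentile of -0.68 and a 95th percentile of 0.89. The values of 848 of the 996 called genes did not overlap between the groups; over all tested genes, 1372 did not overlap (15.4%), 742 with all knockout values above (8.31%) and 630 below (7.06%). Of the called genes, 136 were close to background in the heterozygous livers and 12 in the knockout livers, where the size of the change depends on the added constant. A gene was tested if it was bright in at least 3 of the 9 arrays. Genes bright only in the larger knockout group could pass this filter more easily than genes bright only in the heterozygous livers. With brightness required in all 9 arrays, 480 of 6336 tested genes were called higher and 348 lower. Rises were 58% of those calls, beside 64.3% of the 996. The filter's part in these splits was not tested further. The p-values measure the spread between these 9 animals.

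The count depended on the samples and on the model. It was 655, 620 and 567 without heterozygous livers 1, 2 and 3 in turn, 681 with the actin ratio as a covariate, and 162 when the tumours were added to the fit as a group of their own. In all 9 fits that left out 1 array, 402 of the 996 genes stayed called, 301 of them higher and 101 lower. With the actin ratio as a covariate, 469 of the 996 genes stayed called and 996 kept their direction. Of the called genes whose values follow, the covariate shrank the log2 change by over 1.5 times for Slco1a1 (to -0.38), Aqp1 (0.45), Aqp8 (0.72), Fdps (0.41), Gadd45a (-0.61), Gclc (-0.29), Cat (-0.24), Mcl1 (0.35), Pdia3 (0.23), Ireb2 (-0.31) and Cyp4a14 (-0.18), none of them called in that fit. It enlarged others by as much, such as Agxt (-2.27), Cyp8b1 (-3.30) and Ccn2 (3.62). Some genes given below as not called were called in that fit, such as Clec4f (1.235), Cps1 (-0.926), Cebpa (-0.779) and Abcc3 (-0.61).

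**Figure D1:**
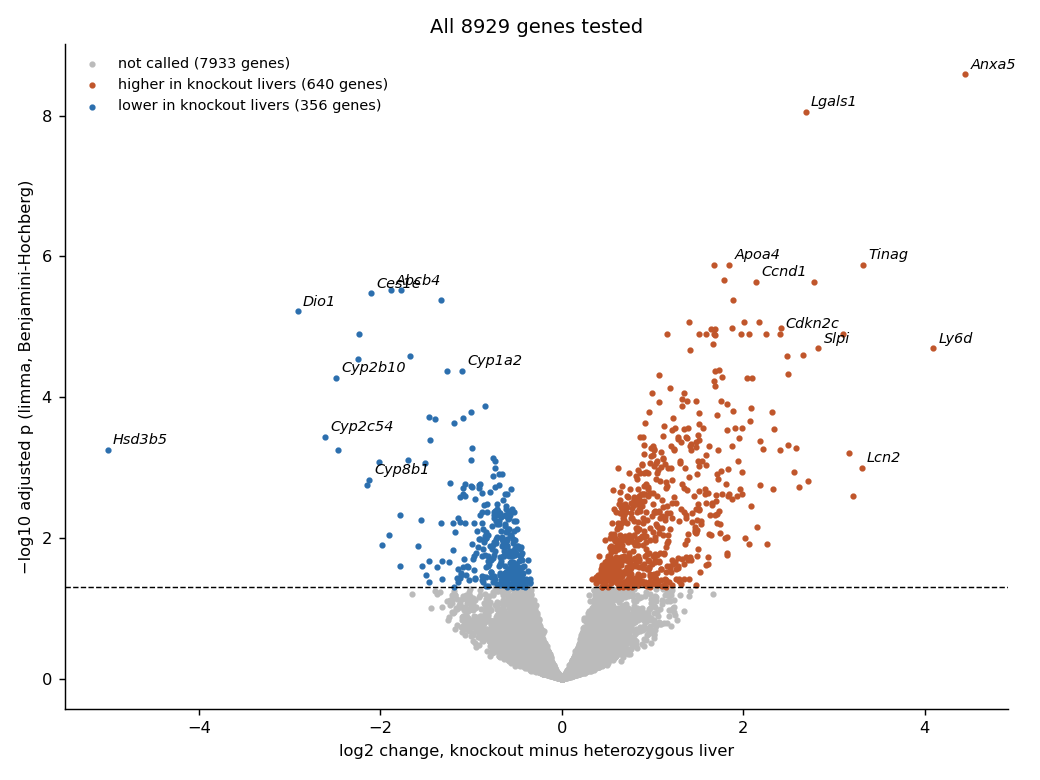
The log2 change of each of the 8929 tested genes (x axis, knockout minus heterozygous liver) against the -log10 of its adjusted p (y axis); the dashed line marks an adjusted p of 0.05. Orange points are the 640 genes called higher and blue points the 356 called lower; Anxa5 and Lgals1 have the smallest p-values, and Hsd3b5 the most negative log2 change.

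The largest rises among genes measured in both groups included annexins, a galectin and several secreted proteins. Anxa5, a calcium-dependent binder of phosphatidylserine, rose from 62.4, 26.3 and 31.9 in the heterozygous livers to a lowest, median and highest signal of 727, 1066 and 1255 in the knockout livers (log2 change 4.44 ± 0.21). Lgals1, galectin 1, was 147, 134 and 135 against 772, 953 and 1125 (2.69 ± 0.14). Anxa2, another annexin, was 99.0, 107 and 86.7 against 324, 546 and 1023 (2.41 ± 0.24), and a second probe set for Anxa2 gave 0.98. None of these groups overlapped, and in all 3 genes the lowest knockout value was that of liver 5.

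The secreted proteins varied more from liver to liver. Lcn2, an iron-siderophore binding protein of injured epithelium, was 28.1, 40.2 and 41.8 in the heterozygous livers and 1682, 479, 364, 642, 86.5 and 411 in knockout livers 1 to 6 (3.30 ± 0.55). Slpi, a secreted inhibitor of leukocyte proteases, was 121, 90.9 and 79.2 against a lowest, median and highest of 366, 697 and 1274 (2.82 ± 0.30). Ptgds, a prostaglandin D synthase, was 105, 52.7 and 77.9 against 148, 508 and 1363 (2.56 ± 0.43). Every knockout value exceeded every heterozygous value, yet Lcn2 in liver 5 lay close to the controls while liver 1 was far above the other livers. Ifi27l2b, an interferon-inducible gene, was 58.1, 67.1 and 25.3 against 276, 390 and 485 (2.78 ± 0.23), again without overlap.

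In a second set of rises, at most 1 heterozygous liver was above background. Ly6d, a small surface protein of epithelial and lymphoid precursors, was 21.5, 2.5 and 4.6 in the heterozygous livers and 87.4, 278 and 581 (lowest, median, highest) in the knockout livers (4.09 ± 0.44). Tinag, a basement membrane protein, was 5.2, 1.0 and 8.5 against 91.8, 121 and 183 (3.32 ± 0.25). Igfbp1, a hepatocyte-secreted binder of insulin-like growth factors, was 85.4, 10.7 and 25.6 against 105, 422 and 833 (3.17 ± 0.49). None of the 3 overlapped, with knockout liver 5 lowest in each; Igfbp1 in heterozygous liver 1 was above background. The signals of Bicc1, an RNA-binding protein (2.71 ± 0.48), Tff3, a mucosal trefoil peptide (2.49 ± 0.38), and Tnfrsf12a, the receptor of the cytokine TWEAK (3.10 ± 0.32), rose in the same way.

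The largest falls were in enzymes and carriers of the hepatocyte. Hsd3b5, a 3-ketosteroid reductase of male mouse liver, was 2916, 2569 and 2798 in the heterozygous livers and 3.2, 48.3, 269, 20.8, 286 and 227 in knockout livers 1 to 6 (-5.01 ± 0.77). Dio1, the deiodinase that converts thyroxine to triiodothyronine, was 1081, 1112 and 1088 against a lowest, median and highest of 73.2, 127 and 246 (-2.91 ± 0.27). Slc22a7, the organic anion transporter OAT2, was 1088, 1206 and 1131 against 139, 254 and 416 (-2.25 ± 0.25). The groups were far apart for each, and the heterozygous livers lay close together while Hsd3b5 in the knockout livers ranged from background to a readily measured signal. Ces1e, a liver carboxylesterase, was 2773, 2156 and 1991 against 389, 545 and 688 (-2.10 ± 0.18), and Cnmd was 223, 249 and 218 against 30.5, 40.8 and 77.1 (-2.23 ± 0.23), both without overlap.

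Among genes that were close to background in the knockout livers, Dct, the melanin enzyme dopachrome tautomerase, fell from 88.0, 107 and 165 to between 3.4 and 33.0 (-2.46 ± 0.38). Susd4, a complement regulator, was 99.8, 155 and 110 against 6.5 to 66.3 (-2.15 ± 0.38). Gna14, a G protein subunit, was between 40 and 81.6 against 1.7 to 17.7 (-1.90 ± 0.43). These groups did not overlap, and the knockout values were mostly below the level at which a probe set was counted as measured, between 26.2 and 31.6. The change of Bzw2 (-1.69 ± 0.27) rested on 1 probe set; its second probe set gave 0.18.

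**Figure D2:**
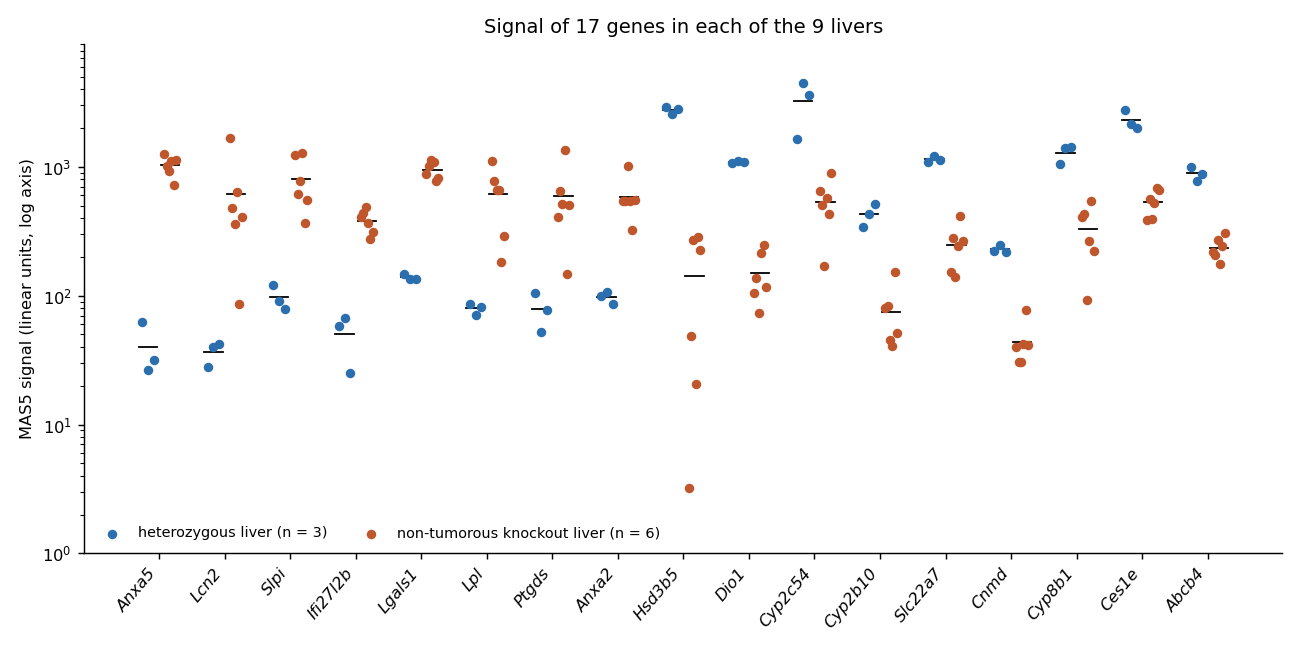
Signals (y axis, log scale) of 8 genes with large rises, 8 with large falls and Abcb4, with 1 point per liver for 3 heterozygous (blue) and 6 knockout livers (orange) and a black line at each group's mean. The 2 groups do not overlap for any of the 17 genes, which was a condition of choice for all of them except Abcb4. Hsd3b5 spreads from 3.2 to 286 in the knockout livers.

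Genes of bile transport fell more often than they rose. Of 17 transport genes tested, 6 fell and 2 rose (47.1% called, beside 11.2% of all genes). Abcb4 itself, the gene that defines the groups, is 1 of the 6 falls. The median log2 change was -0.16 beside -0.02 for all genes. The basolateral bile acid importer Slc10a1 was 3769, 4877 and 4901 in the heterozygous and 2822, 3351 and 3643 (lowest, median, highest) in the knockout livers, a fall of -0.45 ± 0.12 (adjusted p = 0.027). The organic anion importers Slco1a1 (-0.74 ± 0.15) and Slco1b2 (-0.52 ± 0.11) fell as well, and so did Abcg8, a partner in the sterol exporter of the canaliculus (-1.07 ± 0.19). The drug exporters Abcb1a (1.51 ± 0.30) and Abcb1b (1.99 ± 0.34) rose from background. Abcb11, the canalicular bile salt pump, was not called, with signals of 981, 1097 and 993 against 754 to 1501 (0.25 ± 0.17, adjusted p = 0.396), and its groups overlapped. Abcc2 was at 0.40 and Abcc3 at -0.16, neither called.

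Of 17 genes of bile acid synthesis, 5 fell and 0 rose (median -0.30). Cyp8b1, the sterol 12-alpha-hydroxylase that sets the share of cholic acid, was 1059, 1403 and 1417 in the heterozygous and 410, 432, 92.9, 266, 547 and 222 in knockout livers 1 to 6 (-2.13 ± 0.37). Cyp7b1, of the alternative pathway, fell by 1.51 ± 0.25 on the log2 scale, from 3728, 3488 and 3476 to between 680 and 2082. Both were separated between the groups. Cyp7a1, the rate-limiting enzyme of the classical pathway, was 916, 1022 and 1254 against 911 to 1712, with overlapping groups (0.19 ± 0.17, adjusted p = 0.524). Nr1h4, the bile acid receptor FXR, fell by 0.52 ± 0.12 and its target Nr0b2 by 1.12 ± 0.33, the latter with overlapping values.

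Extracellular matrix genes rose in large number. Of 33 tested, 18 rose and 0 fell, with a median log2 change of 0.76. Col3a1, a fibrillar collagen, was 393, 241 and 304 in the heterozygous livers and 820, 745, 1248, 1035, 544 and 603 in knockout livers 1 to 6 (1.35 ± 0.22, second probe set 0.32). Col1a2 was 107, 75.1 and 69.9 against 189, 171, 367, 187, 132 and 175 (1.14 ± 0.24, second probe set 1.29). In both the groups did not overlap, liver 3 was highest and liver 5 lowest. Col1a1 was close to background in the heterozygous livers, at 5.0, 4.5 and 11.6, and was 9.2 in knockout liver 5 and 48.1 to 226 in the other 5 (2.26 ± 0.54), so its groups overlapped at liver 5, and its second probe set gave 0.24.

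Several genes of basement membrane and small proteoglycans were among the 18. The basement membrane genes Col4a1 (1.71 ± 0.23), Col4a2 (0.76 ± 0.21), Nid1 (1.91 ± 0.27) and Lamb1 (1.02 ± 0.31) were called, as were the leucine-rich proteoglycans Bgn (1.73 ± 0.20), Lum (1.95 ± 0.29), Omd (2.50 ± 0.29) and Dcn (0.76 ± 0.23). Bgn was 266, 314 and 218 against a lowest, median and highest of 707, 851 and 1538. Lum was 103, 109 and 82.6 against 281, 338 and 941. Liver 3 was the highest in both and stood apart from the other 5. Ccn2, a matricellular growth factor induced in fibrosis, rose by 2.33 ± 0.42. The laminin Lamc1 (0.09), Col18a1 (0.06), the proteoglycan Fmod (0.60), the fibrillar Col5a1 (0.35), Fn1 (0.05), Postn (-0.12) and Eln (-0.23) were not called.

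Among 23 genes of matrix turnover, 6 rose and 0 fell (median 0.52). They were the protease inhibitors Timp1 (1.47 ± 0.33), Timp2 (1.04 ± 0.23) and Timp3 (1.08 ± 0.27), the gelatinase Mmp2 (1.38 ± 0.32), the macrophage elastase Mmp12 (2.22 ± 0.34) and the procollagen processing enhancer Pcolce (1.11 ± 0.23). Mmp12 was 19.9, 7.5 and 3.3 against 107, 103, 95.5, 80.9, 35.1 and 57.1, without overlap and lowest in liver 5. The collagen cross-linking enzyme Lox was at -1.11 and Serpinh1, the collagen chaperone, at 1.21, neither called.

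Stellate cell and myofibroblast genes moved unevenly. Of 21 tested, 8 rose and 0 fell (median 0.54), among them the growth factor receptors Pdgfrb (1.51 ± 0.22) and Tgfbr2 (1.68 ± 0.13), the matrix protein Tgfbi (1.88 ± 0.18), the intermediate filament Vim (1.65 ± 0.32) and the stellate cell globin Cygb (1.35 ± 0.24). Tgfbr2 was among the steadiest, at 116, 149 and 123 against 402, 402, 438, 436, 436 and 482. Acta2, the contractile actin of activated myofibroblasts, was 85.3, 66.8 and 259 against 98.5, 106, 434, 101, 59.5 and 75.5, with overlapping groups (-0.01 ± 0.47), and Des (-0.66) and Lrat (0.09) were not called. The 5 fixed markers of these cells summed to 269 to 979 in the knockout and 158 to 379 in the heterozygous livers, ranges that overlap. In whole tissue, more cells of a type and more RNA per cell cannot be told apart, here and in the cell type lists that follow.

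Bile duct genes gave a mixed picture. Of 18 tested, 6 rose and 0 fell (median 0.37). The keratins Krt8 (1.20 ± 0.20) and Krt18 (1.11 ± 0.18), which hepatocytes also make, rose, and so did the epithelial cadherin Cdh1 (1.97 ± 0.20), the glucose transporter Slc5a1 (1.84 ± 0.34), Krt23 (1.82 ± 0.46) and the water channel Aqp1 (0.84 ± 0.25). Krt8 was 1487, 1064 and 798 against 3063, 2726, 3190, 2587, 1746 and 2024, without overlap and lowest in liver 5. Krt19 (0.05), Epcam (0.07), Sox9 (-0.25) and Cd24a (0.27), which mark the duct cells themselves, were not called. The summed signal of the 5 measured duct cell markers was 65.0 to 193 in the knockout and 75.0 to 146 in the heterozygous livers. In liver 3 the median of the duct list was 1.30, and in the other 5 knockout livers it was 0.29 to 0.51.

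Macrophage genes rose more often than any other list that was examined. Of 27 genes of recruited and lipid-laden macrophages, 17 rose and 0 fell (median 0.75), and of 16 genes of resident Kupffer cells, 9 rose and 0 fell (median 0.63). Lyz2, a macrophage lysozyme, was 245, 216 and 222 against 1036, 860, 1649, 941, 605 and 1041 (2.06 ± 0.21). The endosomal glycoprotein Cd68 was 48, 69.2 and 38.8 against 222, 187, 228, 179, 125 and 170 (1.67 ± 0.20). Neither overlapped, and liver 5 was lowest in both. The complement subunits C1qa (1.41 ± 0.15), C1qb (1.14 ± 0.19) and C1qc (0.91 ± 0.17), Tyrobp, an adaptor of activating receptors (1.32 ± 0.20), the oxidase subunits Cyba (1.48 ± 0.22) and Cybb (1.99 ± 0.37), Gpnmb (1.88 ± 0.36), Lgals3, galectin 3 (2.25 ± 0.23), and the lysosomal hydrolase Hexa (1.58 ± 0.16) rose.

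Markers used for Kupffer cells were called in part. Clec4f was 431, 393 and 341 in the heterozygous and 305 to 941 in the knockout livers (0.28 ± 0.25), and Cd5l was 392, 349 and 470 against 289 to 584 (-0.08 ± 0.18), both with overlapping groups and not called. With the actin ratio as a covariate, Clec4f was called at 1.235 (limma adjusted p = 0.0034), and Cd5l was at 0.312 and not called. Vsig4 rose by 0.71 ± 0.14. C6, which stands in the Kupffer cell list and also in the male-biased list below, rose by 0.90 ± 0.14 without overlap. Adgre1, which encodes F4/80, was at 0.17 and not called. Fcgr1 (0.32), Folr2 (0.06), Slc40a1 (-0.26) and Mertk (-0.27) of the Kupffer cell list were not called either. In the recruited macrophage list Trem2 (-0.14), Ccr2 (-0.02), Cx3cr1 (0.71), Itgax (0.24), Msr1 (0.13), Capg (-0.17) and Fabp5 (-0.36) were not called. The 4 macrophage markers summed to 1654 to 2903 in the knockout and 1044 to 1069 in the heterozygous livers, without overlap.

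In the lists of other leukocytes 1 gene was called. None of the 8 neutrophil and 5 T and NK cell genes tested was called, and S100a8 was at -0.26 and S100a9 at -0.21. The array held 14 neutrophil and 22 T and NK cell genes of these lists, and the rest were too dim to test. The 8 neutrophil genes had group mean signals of only 19.4 to 65.4. Of 9 B and plasma cell genes, only Blnk rose (1.33 ± 0.23), so 11.1% were called beside 11.2% of all genes. Of 26 endothelial genes, 5 rose and 0 fell (median 0.24). They were Vwf (1.47 ± 0.33), Eng (0.72 ± 0.14) and, shared with other cells, Clec1b, Fcgr2b and Aqp1. Pecam1 was at 1.20, Cdh5 at 0.00 and Stab2 at 0.25, all not called. Neither of the 2 mesothelial genes was called.

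**Figure D3:**
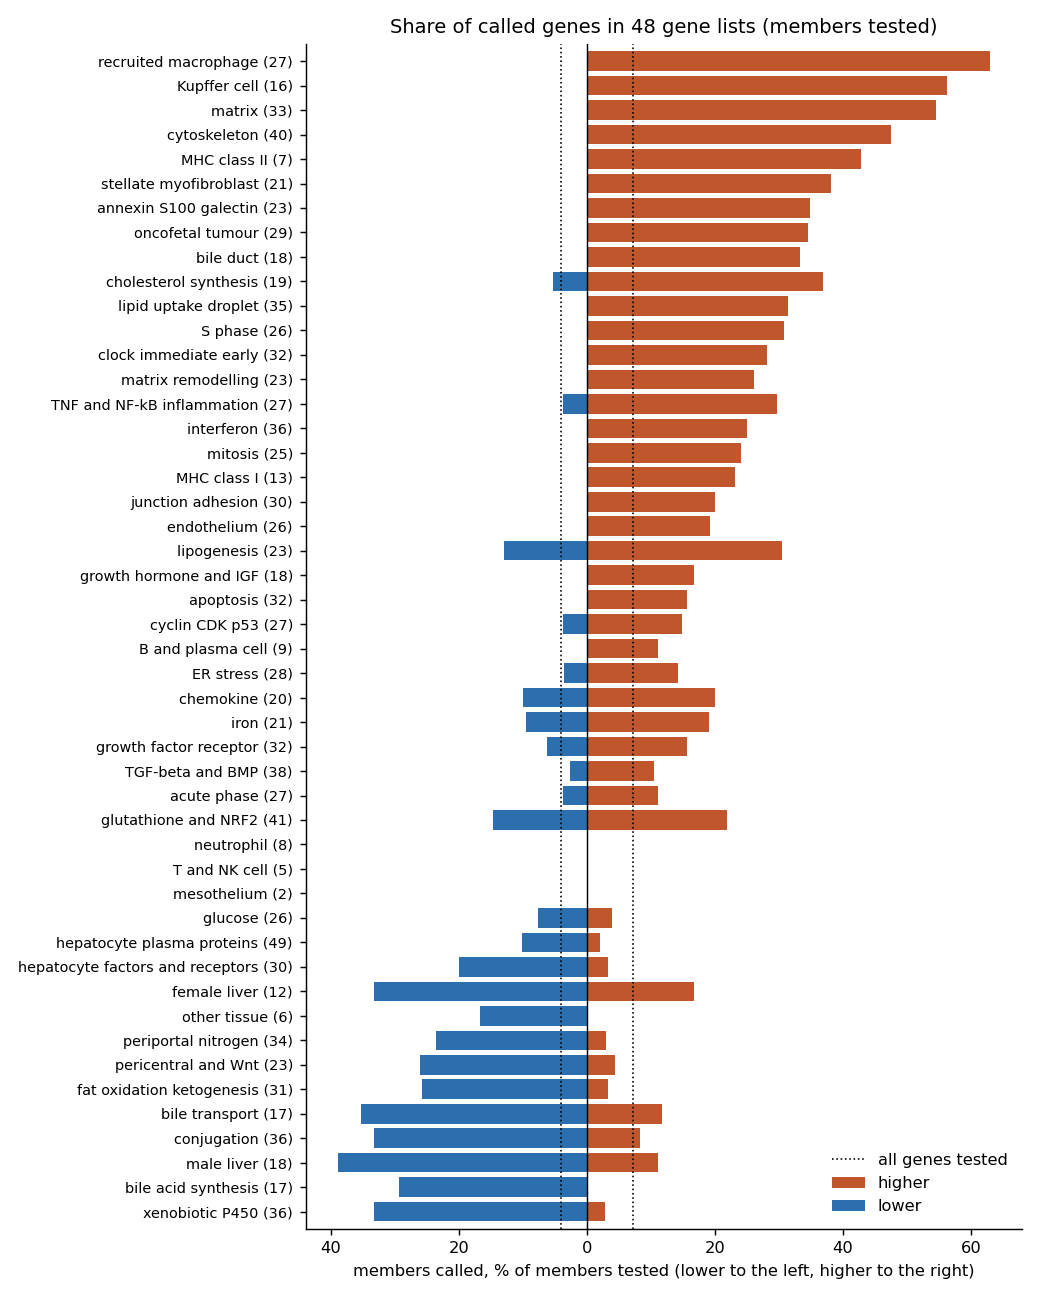
Percent of tested members called higher (orange, to the right) and lower (blue, to the left) for 48 gene lists, with the number of members tested in parentheses; dotted lines mark 7.17% and 3.99%, the shares over all 8929 genes. Lists of macrophage, matrix and cytoskeleton genes reach furthest to the right. Lists of male-biased, bile transport (with Abcb4 itself), cytochrome P450, conjugation and female-biased genes reach furthest to the left. Genes can stand in several lists.

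Inflammatory signalling genes rose in part. Of 27 genes of the TNF and NF-kappaB group, 8 rose and 1 fell (median 0.54). Ubd, the ubiquitin-like modifier FAT10, was 29.2, 19.6 and 32.8 against 192, 249, 207, 237, 66.2 and 146 (2.32 ± 0.31), without overlap. Casp1, the inflammasome protease (1.87 ± 0.28), Cd14, the endotoxin co-receptor (1.35 ± 0.28), and Icam1 (0.69 ± 0.21) rose, Sod2 fell by 0.55 ± 0.11, and Tnf (-0.17), Il1b (0.63) and Nfkbia (-0.06) were not called. Of 20 chemokine genes, 4 rose and 2 fell: Ccl6 (1.52 ± 0.42), Cxcl16 (1.29 ± 0.28), Ccl9 (0.92 ± 0.23) and Mif (0.83 ± 0.15) were higher, and Ccl27a (-0.86 ± 0.20) and Cxcl12 (-0.43 ± 0.13) lower.

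Interferon-stimulated genes rose in 9 of 36 cases with 0 falls (median 0.43). Ifi27l2a (2.15 ± 0.47), Zbp1 (1.63 ± 0.34), Usp18 (1.48 ± 0.33), Bst2 (1.01 ± 0.16) and Ifitm3 (0.62 ± 0.10) were among them, while Ifit1 (-0.34), Irf7 (0.57) and Stat2 (-0.03) were not called. The list's median was -0.03 in knockout liver 5 and 0.18 to 0.70 in the other 5. For antigen presentation, H2-Aa (1.22 ± 0.17), Cd74 (0.97 ± 0.18) and H2-Ab1 (0.89 ± 0.17) rose among 7 class II genes, with 0 falls. Of 13 class I pathway genes, Tap2 (1.03 ± 0.24), H2-M3 (0.95 ± 0.25) and H2-K1 (0.41 ± 0.10) rose and 0 fell.

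Of 27 acute-phase genes, 3 rose and 1 fell (14.8% called, beside 11.2% of all genes): Lcn2, the ferrireductase Steap4 (1.00 ± 0.16) and haptoglobin, Hp (0.56 ± 0.10), rose, and Saa4 fell by 0.88 ± 0.16. Saa1 was 526, 245 and 665 against 437 to 1829, with overlapping groups (0.59 ± 0.37). The iron hormone Hamp was at -0.30 and not called, and of 21 iron genes 4 rose and 2 fell, including Hmox1 (0.63 ± 0.20), Ireb2 (-0.63 ± 0.18) and Aco1 (-0.42 ± 0.13).

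Of 40 cytoskeleton genes, 19 rose and 0 fell (median 0.60). Tubb2a, a beta tubulin, was 58.8, 77.7 and 106 against 642, 516, 342, 501, 148 and 419 (2.19 ± 0.33). Mapt, the microtubule-binding protein tau, was 16.8, 4.6 and 19.7 against 103, 70.3, 112, 102, 146 and 160 (2.48 ± 0.28, second probe set 1.98). Neither overlapped; liver 5 was lowest for Tubb2a and among the highest for Mapt. The beta thymosins Tmsb10 (1.77 ± 0.21) and Tmsb4x (0.87 ± 0.17), the tropomyosins Tpm1 (1.32 ± 0.17), Tpm3 (0.54 ± 0.12) and Tpm4 (1.17 ± 0.20), and gamma actin, Actg1 (1.01 ± 0.19), rose as well, and Actb was at 0.13. Of 23 annexin, S100 and galectin genes, 8 rose and 0 fell (median 0.48), including S100a10, the partner of annexin A2 (0.95 ± 0.17), and Anxa3 (1.07 ± 0.22). Of 30 junction and adhesion genes, 6 rose and 0 fell, among them Cldn2, a pore-forming claudin (0.90 ± 0.14), and the hyaluronan receptor Cd44 (1.24 ± 0.23).

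Some cell cycle genes were called higher, several from background signals, and most were not called. Of 26 S phase genes, 8 rose and 0 fell (median 0.41), and of 25 mitosis genes, 6 rose and 0 fell (median 0.63). Mcm6, a subunit of the replicative helicase, was 2.9, 34.5 and 3.2 in the heterozygous and 48.7, 59.4, 141, 144, 271 and 76.0 in the knockout livers (2.61 ± 0.47). Ccnb2, a mitotic cyclin, was 7.9, 5.7 and 7.9 against 12.1, 134, 64.5, 52.9, 29.4 and 57.1 (1.82 ± 0.46). The groups were separate, and the order of the livers differed between the pair: liver 5 was highest for Mcm6 and second lowest for Ccnb2. Pcna, the polymerase clamp, rose by 0.84 ± 0.14 and Mcm7 by 0.95 ± 0.18, Birc5 by 1.74 ± 0.38, and Mki67 (0.59), Top2a (1.16), Cdk1 (0.78), E2f1 (-0.02), Tk1 (-0.52) and Nek2 (-0.52) were among those not called.

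The 250 bases upstream of the start are shown for 3 of these genes, Mcm6, Ccnb2 and Mcm7, because they hold the motifs of replication and mitosis genes. They are read 5' to 3' on the gene's strand, from RefSeq on GRCm38.p6, at chr1:128359706-128359955 (minus strand) for Mcm6, chr9:70421555-70421804 (minus strand) for Ccnb2 and chr5:138171884-138172133 (minus strand) for Mcm7, the first of 2 windows that gene has. Capitals mark matches on either strand.
Mcm6: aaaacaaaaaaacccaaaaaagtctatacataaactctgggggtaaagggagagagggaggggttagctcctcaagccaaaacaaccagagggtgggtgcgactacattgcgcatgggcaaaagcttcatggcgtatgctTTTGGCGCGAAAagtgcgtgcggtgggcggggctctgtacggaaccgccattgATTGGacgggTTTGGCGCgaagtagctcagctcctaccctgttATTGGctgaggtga
Ccnb2: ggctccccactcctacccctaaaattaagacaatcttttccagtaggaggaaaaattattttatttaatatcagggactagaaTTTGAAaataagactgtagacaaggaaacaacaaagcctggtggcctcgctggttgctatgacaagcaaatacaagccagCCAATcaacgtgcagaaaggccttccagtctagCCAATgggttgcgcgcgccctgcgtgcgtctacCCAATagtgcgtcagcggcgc
Mcm7: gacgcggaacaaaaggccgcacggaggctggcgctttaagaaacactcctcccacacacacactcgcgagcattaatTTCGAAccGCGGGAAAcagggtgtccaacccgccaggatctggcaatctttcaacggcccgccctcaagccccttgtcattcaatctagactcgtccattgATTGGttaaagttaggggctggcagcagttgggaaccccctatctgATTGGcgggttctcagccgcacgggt
The motifs searched on both strands were the CCAAT box, CCAAT; the cell cycle homology region, TTTGAA or TTCGAA; and an E2F site, TTTGGCGC, TTTCGCGC, TTTCCCGC or TTTGCCGC. Among the 14 called genes of both lists, 12 had a window; 9 held a CCAAT box (75.0%), 3 the homology region (25%) and 3 an E2F site (25%). Of the 7255 tested genes with a window, 39.8% held a CCAAT box, 14.7% the homology region and 3.91% an E2F site, and of all 32851 windows 33.8%, 17.1% and 1.86%. Among the 45 tested members of both lists with a window, called or not, the shares were 68.9%, 35.6% and 13.3%. A match is only a run of letters in the window.

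Of 27 cyclin, CDK inhibitor and p53 target genes, 4 rose and 1 fell. Ccnd1, the G1 cyclin D1, was 199, 333 and 286 against 855, 1121, 1269, 1326, 1257 and 1538 (2.14 ± 0.18; other probe sets 1.93 and 1.73). Cdkn2c, the CDK4 and CDK6 inhibitor p18, was 16.3, 40.9 and 65.4 against 255, 205, 195, 250, 257 and 235 (2.40 ± 0.25). Both were far apart between the groups, and liver 5 lay among the other knockout livers for Ccnd1 and was the highest for Cdkn2c. The CDK inhibitor Cdkn1a (1.76 ± 0.30) and Btg2 (1.35 ± 0.19) rose, Gadd45a fell by 0.97 ± 0.27, and the p53 targets Mdm2 (0.03) and Ccng1 (0.04) were not called. Of 32 apoptosis genes, 5 rose and 0 fell (15.6% called, beside 11.2% of all genes), and the list's median was 0.00. Among the rises were Casp12, a caspase of the endoplasmic reticulum (2.18 ± 0.21), and Mcl1 (0.61 ± 0.17).

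Of 35 genes of lipid uptake and droplets, 11 rose and 0 fell (median 0.30). Lpl, lipoprotein lipase, which adult hepatocytes scarcely make, was 85.5, 71.3 and 82.1 against 1113, 774, 659, 657, 183 and 288 (2.58 ± 0.40; second probe set 2.94). Cd36, the fatty acid translocase, was 51.4, 56.5 and 85.2 against 376, 388, 278, 444, 148 and 742 (2.34 ± 0.33). Neither overlapped, with liver 5 lowest in both. The lipogenic receptor Pparg (1.99 ± 0.28), the droplet protein Cidec (2.06 ± 0.49), Cav1, the caveolar scaffold (1.82 ± 0.26), and Apoa4 (1.85 ± 0.14) rose, and Plin2 was at -0.11.

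Of 23 genes of fatty acid synthesis, 7 rose and 3 fell. Fasn, fatty acid synthase, was 862, 1058 and 679 against 2106, 2060, 2255, 3045, 2723 and 2634 (1.51 ± 0.15), without overlap, and the elongase Elovl6 rose by 1.55 ± 0.25. Elovl3, an elongase of male-biased expression, fell by 1.45 ± 0.21, and Elovl2 (-0.53 ± 0.13) and Fads1 (-0.54 ± 0.14) fell, while Srebf1 (-0.18), Scd1 (0.19), Acaca (0.84) and Thrsp (0.02) were not called. Of 19 genes of cholesterol synthesis, 7 rose and 1 fell (median 0.48), among them Hmgcs1 (0.92 ± 0.16), Sqle (1.03 ± 0.24) and Fdps (1.03 ± 0.21), and Tm7sf2 fell by 0.68 ± 0.14. The list's median was 0.97 in knockout liver 1 and 0.82 in liver 4, and 0.01 in liver 3. Of 31 genes of fat oxidation and ketogenesis, 8 fell and 1 rose (median -0.30); the lipid-sensing receptor Ppara (-0.67 ± 0.17), the thioesterase Acot3 (-1.98 ± 0.48) and the peroxisomal enzyme Ehhadh (-0.53 ± 0.14) fell with overlapping values, and Ppargc1a rose by 0.84 ± 0.24.

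Genes with sex-biased expression in mouse liver were called lower more often than higher, by a narrower margin for the female-biased ones. Of 18 male-biased genes, 7 fell and 2 rose (median -0.66). Hsd3b5, Cnmd, Susd4, Cyp7b1, Elovl3, Nudt7 (-0.91 ± 0.16) and Slco1a1 were lower, and C6 (0.90 ± 0.14) and Ihh (1.51 ± 0.37) higher. Of 12 female-biased genes, Cyp2b10, Cyp2b9 (-2.02 ± 0.33), Acot3 and Cyp4a14 (-1.78 ± 0.48) fell, and Ntrk2 (1.36 ± 0.20) and Rtn4 (1.68 ± 0.17) rose. Values did not overlap for 2 lower and 3 higher members of this female-biased list, called or not. Its median was -0.37, and by knockout liver it ran from -0.61 in liver 2 to 0.71 in liver 6. Cyp4a14 was 144, 120 and 111 against 16.1, 25.7, 23.9, 17.2, 15 and 172, so liver 6 lay above the controls, and with the actin ratio as a covariate its change was -0.18 (adjusted p = 0.874); Acot3 also overlapped and was at -1.36 with the covariate (adjusted p = 0.277). The Y-linked gene Eif2s3y had signals of 51.4 to 131 in the 9 arrays, so it was measured in every animal of both groups. The brightest Xist probe set reached 52.3 in any of them, and the other Xist probe sets at most 20.9 and 14. Of 18 growth hormone and insulin-like growth factor genes, 3 rose and 0 fell (16.7% called, beside 11.2% of all genes). The rises were Igfbp1, Igfbp7 (1.69 ± 0.17) and Cish (1.02 ± 0.30). The growth hormone receptor Ghr (-0.57 ± 0.19, adjusted p = 0.0662) and Igf1 (-0.47 ± 0.16, adjusted p = 0.0673) were not called.

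Cytochrome P450 genes fell in part. Of 36 xenobiotic P450 genes, 12 fell and 1 rose (median -0.28). Cyp2c54 was 1638, 4497 and 3642 in the heterozygous and 650, 506, 172, 573, 434 and 892 in knockout livers 1 to 6 (-2.61 ± 0.38). Cyp2b10, the classical target of the receptor CAR, was 339, 433 and 519 against 80.0, 82.8, 45.7, 40.4, 152 and 50.9 (-2.48 ± 0.30; other probe sets -2.47 and -3.12). Cyp1a2, of caffeine metabolism, was 4600, 5069 and 5306 against 2039, 1915, 2195, 2532, 2610 and 2720 (-1.10 ± 0.13). None overlapped; Cyp1a2 and Cyp2c50 (-1.68 ± 0.19) had a narrow spread in the knockout livers, while Cyp2c54 varied in both groups. Cyp2c29 (-1.39 ± 0.19) and Cyp2e1 (-0.69 ± 0.12) fell, Cyp2a12 rose by 0.37 ± 0.11, and Cyp3a11 (-0.13) and Cyp2f2 (-0.15) were not called. Cyp2c genes are close relatives, and probe sets may share transcripts between them.

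**Figure D4:**
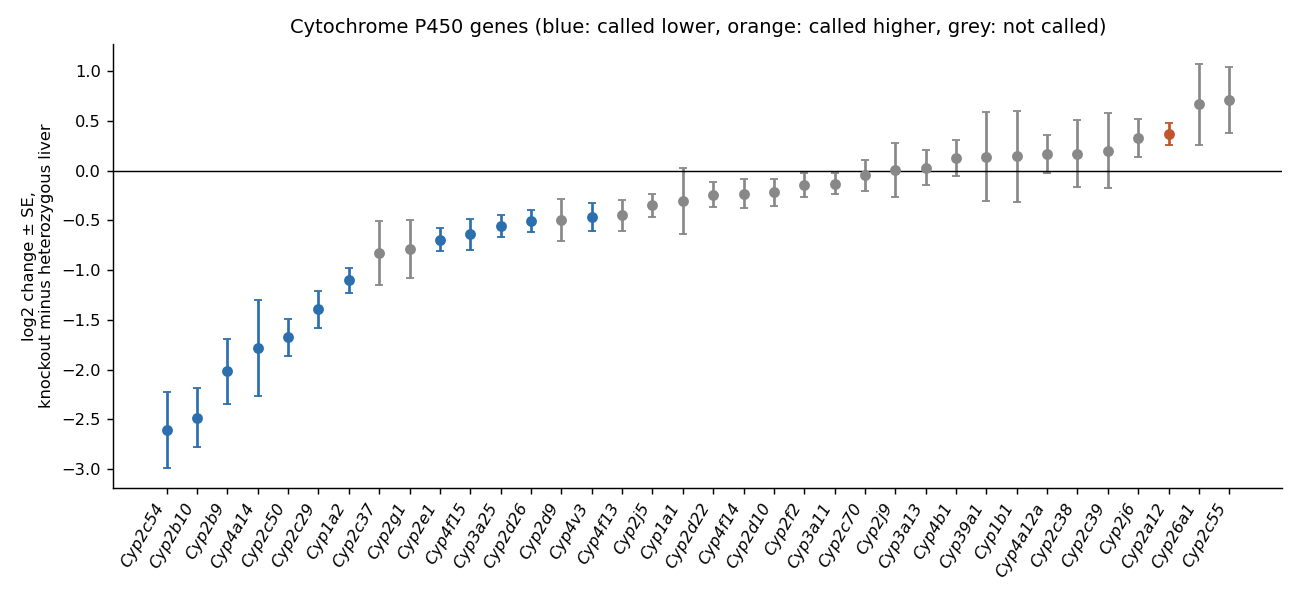
The log2 change (y axis, knockout minus heterozygous liver, with bars of ± 1 SE) of each of 36 cytochrome P450 genes, ordered by size. The 12 genes called lower (blue) lie between -2.61 for Cyp2c54 and -0.47 for Cyp4v3, 1 gene is called higher (orange, Cyp2a12) and the others (grey) are not called.

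Of 36 conjugation and hydrolysis genes, 12 fell and 3 rose (median -0.28). Sult5a1, a sulfotransferase, was 293, 238 and 234 against 61.5 to 78.3 (-1.78 ± 0.15), and the UDP-glycosyltransferase Ugt3a1 was 732, 748 and 836 against 274 to 331 (-1.33 ± 0.12). Both knockout groups were tight and far from the controls. The carboxylesterases Ces1f (-0.91 ± 0.16), Ces1c (-0.74 ± 0.12) and Ces2a (-0.62 ± 0.13) fell with Ces1e, and Fmo5 (0.82 ± 0.14), Sult1a1 (0.75 ± 0.20) and Aldh1a7 (0.54 ± 0.14) rose. Of 41 glutathione and NRF2 target genes, 9 rose and 6 fell (median -0.04). Gstm3, a glutathione transferase, was 1352, 1773 and 1604 against 7359, 6437, 6693, 5551, 3946 and 9169 (2.01 ± 0.19), and Gpx3 (1.40 ± 0.24), Gpx4 (0.96 ± 0.13) and Srxn1 (0.92 ± 0.17) rose. Gstt3 (-1.20 ± 0.26), Sod1 (-0.70 ± 0.12), Gclc (-0.50 ± 0.12) and catalase, Cat (-0.42 ± 0.11), fell, and Nqo1 was at 0.00.

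Genes of both liver zones were called lower more often than higher. Of 23 pericentral and Wnt target genes, 6 fell and 1 rose (median -0.31): besides Cyp1a2 and Cyp2e1, the vasopressin receptor Avpr1a (-0.86 ± 0.25), Rgn (-0.59 ± 0.12), Aldh1a1 (-0.58 ± 0.16) and Tbx3 (-0.82 ± 0.25) were lower, and Gstm3 higher. The pericentral glutamine synthetase Glul was at 0.02 and Axin2 at -0.28, neither called. Of 34 periportal and nitrogen genes, 8 fell and 1 rose (median -0.28). Agxt, the peroxisomal glyoxylate aminotransferase, was 1848, 1961 and 2070 against 910, 1086, 848, 903, 940 and 297 (-1.33 ± 0.29), without overlap and lowest in liver 6. Gnmt (-0.73 ± 0.15), Cbs (-0.70 ± 0.15), Hpd (-0.65 ± 0.12) and arginase, Arg1 (-0.50 ± 0.11), fell, the rise was Cdh1, and the urea cycle entry enzyme Cps1 was at -0.46 and not called.

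Plasma protein genes were mostly lower by small amounts, with 6 of 49 log2 changes above 0 and a median of -0.20. Of the 49, 5 fell and 1 rose (12.2% called, beside 11.2% of all genes). All knockout values lay below the controls for 11 of the 49, beside 7.06% of all genes. The falls were F11, coagulation factor XI (-0.86 ± 0.17), Fetub (-0.61 ± 0.14), Masp1 (-0.48 ± 0.12), Azgp1 (-0.37 ± 0.11) and Apoh (-0.35 ± 0.11). Apoc2 rose by 1.05 ± 0.17. Albumin was 18671, 20113 and 19480 in the heterozygous and 14053 to 18457 in the knockout livers, without overlap and not called (-0.23 ± 0.11). The summed hepatocyte markers given above were likewise lower in the knockout livers, and their part in the falls of hepatocyte genes was not tested. Of 30 hepatocyte transcription factors, receptors and their associates, 6 fell and 1 rose (median -0.21): Dio1, Nr0b2, the xenobiotic receptor CAR, Nr1i3 (-0.82 ± 0.22), Ppara, Nr2f2 (-0.66 ± 0.15) and Nr1h4 were lower and Foxa1 (0.85 ± 0.23) higher. Hnf4a (-0.12), Cebpa (-0.43) and Nr1i2, which encodes PXR (0.00), were not called. Of 26 glucose genes, 2 fell and 1 rose (11.5% called, beside 11.2% of all genes). The rise was Pkm, a pyruvate kinase of proliferating cells (0.81 ± 0.22).

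In a list of 32 immediate early and clock genes, 9 rose and 0 fell, and no clock gene was called. Fos was 30.1, 2.5 and 7.0 in the heterozygous and 93.2, 270, 1002, 87.5, 82.4 and 121 in the knockout livers (3.21 ± 0.60). Egr1 was 93.1, 132 and 81.3 against 373, 485, 1532, 348, 188 and 482 (2.09 ± 0.41). Dusp1, a MAP kinase phosphatase, was 113, 115 and 98.2 against 201, 642, 1320, 349, 271 and 249 (1.80 ± 0.42). The groups did not overlap, and in all 3 liver 3 was the highest by a wide margin. Jun was steadier, at 104, 84.3 and 105 against 197 to 232 (1.07 ± 0.14; second probe set 2.93), and Jund (0.90 ± 0.13), Atf3 (1.20 ± 0.32), Klf6 (1.07 ± 0.28), Id3 (0.79 ± 0.19) and Myc (0.95 ± 0.26) rose.

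Growth factor and stress pathways changed in single genes. Of 32 growth factor and receptor genes, 5 rose and 2 fell: Axl, a receptor for apoptotic cell bridging ligands (1.69 ± 0.18), Hgf (1.26 ± 0.35), Ntrk2, Pdgfc (0.81 ± 0.21) and Dusp6 (0.68 ± 0.21) were higher, and Lifr (-1.46 ± 0.20; other probe sets -0.48 and -0.22) and Vegfa (-0.64 ± 0.16) lower. Egfr (-0.38) and Met (-0.17) were not called. Of 38 genes of TGF-beta and BMP signalling, 4 rose and 1 fell (13.2% called, beside 11.2% of all genes). Tgfbr2 was ahead of Tgfb1 (0.90 ± 0.27), Ltbp4 (0.84 ± 0.26) and Id3, and Inhbc was lower (-0.59 ± 0.17). Of 28 genes of endoplasmic reticulum stress, 4 rose and 1 fell (17.9% called, beside 11.2% of all genes). The disulfide isomerases Pdia3 (0.74 ± 0.18) and Pdia6 (0.69 ± 0.14) rose and Hspa5, the chaperone BiP, was at 0.18. Of 29 genes of fetal liver and liver tumours, 10 rose and 0 fell (median 0.39), among them Golm1, a Golgi protein shed in liver disease (1.72 ± 0.27), and Sox4 (2.10 ± 0.25), whose other probe sets gave -1.43 and 0.07, so its direction is not settled; Gpc3 was at 1.07 and Dlk1 at -0.51, neither called. Of 6 genes of other tissues, Car3 fell by 0.53 ± 0.12.

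The 48 lists together held 1051 of the tested genes, of which 28.4% were called, and 697 called genes stood in none of them. Among these were Tgm2, the tissue transglutaminase, at 646, 610 and 515 against a lowest, median and highest of 990, 1621 and 1832 (1.33 ± 0.17; 4 other probe sets 1.04 to 1.47), Fkbp11 (1.79 ± 0.15), Plpp2 (1.40 ± 0.13) and Olig1 (2.09 ± 0.27). Alas1, the rate-limiting enzyme of heme synthesis, was 964, 1189 and 1410 against 1432 to 3590 (1.12 ± 0.22; second probe set 0.23), and Aqp8, a water channel of the canaliculus, rose by 1.19 ± 0.24. Upp2, a uridine phosphorylase (-1.18 ± 0.27), Cela1 (-1.27 ± 0.15) and Fgf1 (-1.12 ± 0.21) fell. None of these overlapped between the groups, a condition of choice for Fkbp11, Plpp2, Olig1 and Cela1. Among the called genes named in these accounts, other probe sets gave a change of the opposite sign for Cxcl12 (0.13), Igfbp7 (-0.57, with a further one at 1.16), Masp1 (0.51 and 0.37), Sod1 (0.02), Srxn1 (-0.58) and Fcgr2b (-0.12). A further probe set lay within 0.2 of 0 for Cldn2 (0.06), H2-K1 (0.08 and 0.00), Ppargc1a (0.02), Timp3 (0.14), Tgfbi (0.16), Mcm7 (0.20), Pdia6 (0.20), Nr2f2 (-0.15), Aco1 (-0.17) and Slco1b2 (-0.03). Tgm2, Alas1, Aqp8, Upp2 and Fgf1 were picked after their values were seen.

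The 6 knockout livers differed among themselves in a recurring way. Over the 640 genes that rose, the median log2 difference from the heterozygous mean was 0.74 in liver 5 and 0.94 to 1.11 in the other 5, and liver 5 had the lowest knockout value for 272 of the 640 genes. Liver 3 had the highest value for 215 of the 640. Over the 356 genes that fell, the median was -0.59 in liver 5 and -0.72 in liver 3, and liver 5 was the highest of the 6 for 111 genes. The list medians by liver placed liver 3 at 1.37 for stellate cell genes, 1.18 for matrix and 0.70 for immediate early and clock genes, above the other knockout livers in each. For S phase genes liver 5 was the highest at 0.75, liver 3 next at 0.55 and liver 1 the lowest at 0.13. Without liver 5 there were 1059 calls, and without liver 3 there were 857.

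**Figure D5:**
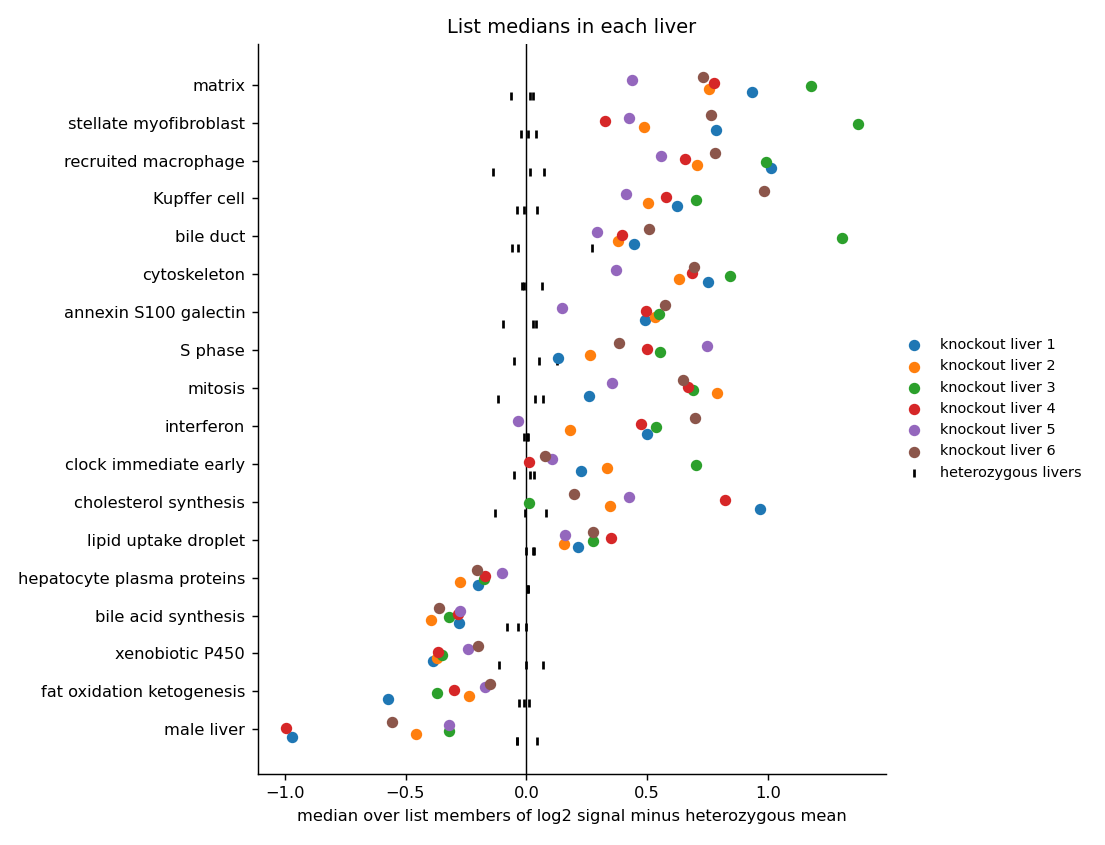
Median over the members of 18 gene lists of the log2 signal minus the heterozygous mean (x axis), with 1 coloured point for each knockout liver and black ticks for the 3 heterozygous livers. Knockout liver 3 (green) lies furthest right for matrix, stellate and bile duct genes, liver 5 (purple) lies nearest to 0 for several of the lists that rose, and S phase genes reach 0.75 in liver 5.

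The livers of the 4 knockout mice with a profiled tumour were compared with those of the 2 without in the same 3-group model. No gene was called (0 of 8929, percent called 0), and 378 genes had an unadjusted limma p under 0.05. These 378 are a smaller share of the 8929 than the 0.05 that chance alone would give. Of the 5 genes with the smallest p-values, picked after their values were seen, 4 belong to the heat shock response. Hspa1b, an inducible HSP70, was 227 and 214 in livers 1 and 2 and 578, 598, 1713 and 1086 in livers 3 to 6, with 366, 380 and 311 in the heterozygous livers (1.98 ± 0.32, adjusted p = 0.0508). Its neighbour Hspa1a was 2.1 and 3.6 against 62.2, 50.5, 70.6 and 76.7 (2.62 ± 0.41, adjusted p = 0.0508). Hsph1 was 143 and 159 against 276, 426, 550 and 650 (1.53 ± 0.28, adjusted p = 0.129), and Dnajb1 188 and 239 against 390, 423, 581 and 517 (1.12 ± 0.20, adjusted p = 0.084). The other, Ndufb1, a subunit of respiratory complex I, was 4.4 and 4.7 against 72.1, 55.0, 55.6 and 49.1, with 64.0, 61.3 and 25.2 in the heterozygous livers (2.29 ± 0.37, adjusted p = 0.0508). In all 5 genes livers 3 to 6 lay above livers 1 and 2 without overlap. The heterozygous livers lay between them for Hspa1a and Hspa1b and below both for Dnajb1; for Hsph1 they were 246, 143 and 153, and for Ndufb1 they lay above livers 1 and 2. Another heat shock gene, Hspb1, was at 1.11 ± 0.23 (adjusted p = 0.337). Hspa1a and Hspa1b are near-identical copies that probe sets may not separate. The labels do not give the order in which the livers were collected or frozen.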

How the data were processed

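Total RNA of 9 livers was hybridised to Affymetrix arrays. The deposited values are linear intensity signals from MAS5 (version not stated), per the submitters' processing notes; arrays already shared a 2% trimmed mean of 150.1. The table held 22690 probe sets; further probe sets of the array named in the design text were not analysed here. Of these, 20380 matched 1 gene in the platform annotation, 691 several and 1606 were not listed.

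Signals were taken as log2(signal + 9.1), 9.1 being the 20th percentile of the 9 arrays. Probe sets above the 40th percentile of their array in at least 3 of 9 arrays were kept, and the one with the highest mean stood for its gene. Groups were compared with limma 3.58.1 (R 4.3.3; lmFit, eBayes with trend, two-sided), with Benjamini-Hochberg adjustment over all 8929 genes and a threshold of 0.05. The script was tested on simulated data. Members and gene lists were chosen with earlier results of these data known, so lists are described by counts and medians, without a list test. Named genes were Abcb4, then called, non-overlapping genes: the 15 largest rises and falls measured in both groups, the 10 largest near background in 1 group, the 10 smallest adjusted p in each direction, and, with overlap of values allowed, up to 4 called members per direction and list, or the brightest where none was called; a few added after their values were seen are marked, and members outside the rule are given to complete their lists. The number of arrays limits the precision. Alternatives covered the constant, filter, scaling, probe set choice, variance model, RNA quality and samples.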

Additional observations from a re-analysis of the deposited data

Results flagged for a closer look

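In the 6 knockout livers, 205 named genes were examined for a liver that stood apart, by the gap to its nearest neighbour as a share of the whole range. In 12 of the 205 genes the gap passed Dixon's critical value for 6 samples. Chance flags about 1 in 20 groups, so 12 of 205 is close to the chance share. Knockout liver 6 was highest for Cyp4a14 (gap 0.818; signal 172 beside 25.7 in the next liver) and lowest for Agxt (0.808; 297 beside 848), Cbs (0.659), Capn8 (0.657) and Hsd3b7 (0.643). Knockout liver 3 was highest for Pdgfrb (0.723; 237 beside 131), Igfbp7 (0.65) and Tgfbi (0.637) and lowest for Gsto1 (0.652). Knockout liver 5 was lowest for Elovl7 (0.714) and Lgals3 (0.632) and highest for Cnmd (0.677).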

How the results depend on the processing

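The 996 calls (640 higher, 356 lower) fell to 162 (132 higher, 30 lower) with the tumours in the fit. Without a variance trend 215 genes were lower, with the actin ratio as a covariate 420 were higher, with only the 4 livers of mice with a profiled tumour 233 were lower, and with only the other 2 livers 612 were called, 358 of them higher. Leaving out 1 array gave 567 to 1059 calls, 410 to 669 higher and 157 to 390 lower; the low ends came without heterozygous liver 3, and 193 and 176 genes were lower without heterozygous livers 1 and 2. The cause of these shifts was not tested. Mouse numbers did not pair the livers (correlations of deviations -0.0279, 0.0144 and -0.047); with the mouse number as a replicate block 670 genes were called, 221 of them lower. Livers with against without a profiled tumour gave 1 call with no constant and 0 to 2 with 1 knockout array left out. Bzw2 turned to 0.1833 when its other probe set stood for it (filter in all 9 arrays, and all 15 arrays) and, with 1 array left out, ranged from -1.8178 to 0.2957, turning to 0.2957, 0.0843 and 0.1699 without heterozygous livers 1, 2 and 3. Masp1 turned to 0.0797 with the mean of its probe sets. Krt19, not called, turned to -0.0917 with array weights, -0.3012 with 2 knockout livers, and -0.0223, -0.1695 and -0.1165 without knockout livers 1 and 3 and heterozygous liver 2, the highest such value being 0.2566. Bad ranged from -0.0234 without heterozygous liver 2 to 1.3699 without heterozygous liver 3. Over the named genes, 457 of 3141 values under other settings and 253 of 1824 with 1 array left out kept their direction but lost the call.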
